A study of Arabidopsis thaliana with 6 samples.

Results

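The 30 nuclear genes examined here encode enzymes and regulators of the Calvin cycle (18 genes) and of photorespiration (12 genes), and they were taken by gene identifier from a fixed member list, out of 33489 genes counted. Transcripts were measured by RNA sequencing of polyadenylated RNA in Arabidopsis thaliana seedlings kept on plates for 14 days. The double mutant zdp-1 ape2-2, named for alleles of the DNA phosphatase gene ZDP and the apurinic/apyrimidinic endonuclease gene APE2, was compared with the wild type Col-0, with 3 libraries of each genotype. Both genotypes were grown and extracted by the same stated protocol, no other allele or treatment is named for either, and whether the seedlings of a library were pooled is not stated. The series concerns DNA damage and DNA methylation, and the comparison here asks how transcripts of carbon fixation differed between the mutant and the wild type.

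The Calvin cycle fixes CO2 in the chloroplast: Rubisco joins it to ribulose bisphosphate, the product is reduced to triose phosphate, and most of that is used to regenerate ribulose bisphosphate. Rubisco also accepts oxygen, and the phosphoglycolate made by that reaction is returned to the cycle by photorespiration, a route through chloroplast, peroxisome and mitochondrion. These enzymes are among the most abundant of green tissue, and nuclear genes encode them all except the large subunit of Rubisco, a chloroplast gene that was not analysed here.

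Transcripts of 27 of the 30 genes fell in zdp-1 ape2-2, none rose, and 3 did not pass the test. Over all 21182 genes tested, 21.2% were called lower and 22.2% higher, 43.4% in all. A call is a Benjamini-Hochberg adjusted p below 0.05 in edgeR's quasi-likelihood test. The median log2 fold change, zdp-1 ape2-2 over Col-0, was -0.21 for the 30 genes and 0.00 for all genes tested. In 27 members every mutant library lay below every Col-0 library, against 24.8% of all genes tested, and no member was wholly above Col-0, against 25.5% of all genes. The changes were small, since 5 members were lower by at least 20%, 12 were lower by 10% to 20%, and 12 differed by under 10%; the remaining gene, PGLP1, could not be measured. Tested against a change of 1.2-fold instead of 0, 5 members were lower, against 3.14% of all genes.

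Together the 30 genes took 4.92%, 4.83% and 4.87% of all counts in zdp-1 ape2-2 libraries A, B and C, against 5.50%, 5.45% and 5.45% in Col-0 libraries A, B and C. On the CPM scale (a gene's count set against a common library total, after TMM scaling between libraries) their sum averaged 47653 ± 438 in zdp-1 ape2-2 and 55897 ± 373 in Col-0 (SD, n = 3 each), a change of -14.7%. The counts behind these values were large: apart from PGLP1, the smallest count of any member in any library was 3688, for CP12-2. In whole seedlings, fewer green cells and less of these transcripts in each cell cannot be told apart.

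How the libraries are scaled to each other matters for changes of this size. Scaled by library totals alone, 20 members were lower and 2 higher, with 12.8% and 32.9% of all genes called in those directions, and the member median was -0.14. The share of higher genes among all calls was 71.9% with that scaling and 51.1% with TMM.

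**Figure D1:**
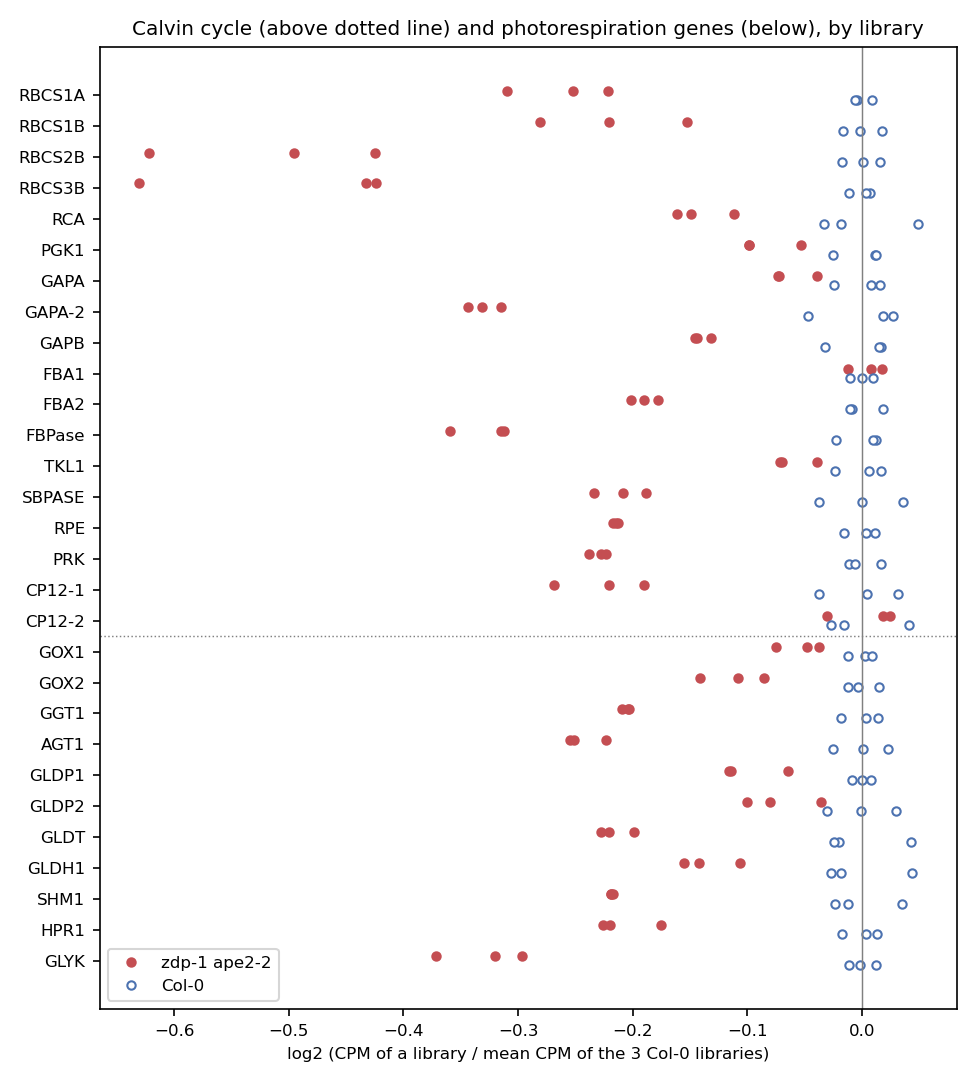
Level of each member in each library, as log2 of its CPM over the mean CPM of the 3 Col-0 libraries (horizontal axis), with zdp-1 ape2-2 as filled and Col-0 as open points; the dotted line parts Calvin cycle genes (above) from photorespiration genes (below), and PGLP1 is not drawn. The mutant points lie left of all Col-0 points for 27 genes and mix with them for FBA1 and CP12-2; with library totals alone as scaling, GAPA, TKL1 and GOX1 have log2 fold changes of 0.00, 0.00 and 0.01.

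Libraries held 31190605 to 37241739 counts, and the common biological coefficient of variation between libraries of a genotype was 1.99%. Separate cultures are not stated for the 3 samples of a genotype, and p-values therefore reflect the spread among these samples alone, which can be technical. An exact two-sided permutation test of 3 against 3 libraries cannot go below p = 0.1, which 27 members reached; FBA1, CP12-2 and PGLP1 gave exact p-values of 0.8, 1 and 0.3. Both genes named in the genotype were lower in the mutant but still counted: ZDP had 17.9 ± 1.43 CPM in zdp-1 ape2-2 and 29.4 ± 1.37 CPM in Col-0, and APE2 had 5.75 ± 0.12 CPM in zdp-1 ape2-2 and 8.18 ± 0.87 CPM in Col-0, with 33.6% of the exons of APE2 under another gene.

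The small subunit of Rubisco is encoded by 4 genes. RBCS1A stands alone on chromosome 1, and RBCS1B, RBCS2B and RBCS3B lie in a row on chromosome 5, between positions 15376988 and 15385320 of the TAIR10 build. Their coding sequences are close enough for reads to be assigned to a wrong copy: RBCS1B and RBCS2B were identical at 97.25% of aligned bases, RBCS2B and RBCS3B at 96.89%, RBCS1B and RBCS3B at 96.7%, and RBCS1A and each of the others at 90.42% to 90.61%. The stretch of 150 coding bases below, read 5′ to 3′ from the RefSeq TAIR10.1 genome, is shown because it lets a reader see what separates the copies. Capitals mark the 9 positions at which the 4 genes are not all alike.
RBCS1A: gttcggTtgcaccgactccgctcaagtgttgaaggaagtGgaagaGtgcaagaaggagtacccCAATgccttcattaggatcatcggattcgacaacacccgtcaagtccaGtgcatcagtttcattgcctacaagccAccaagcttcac
RBCS1B: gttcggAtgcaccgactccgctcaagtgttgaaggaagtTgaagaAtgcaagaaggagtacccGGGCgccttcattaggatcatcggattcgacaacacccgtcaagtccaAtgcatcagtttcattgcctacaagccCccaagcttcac
RBCS2B: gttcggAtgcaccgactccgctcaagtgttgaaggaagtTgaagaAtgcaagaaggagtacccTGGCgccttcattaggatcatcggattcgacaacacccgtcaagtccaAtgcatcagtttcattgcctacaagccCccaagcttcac
RBCS3B: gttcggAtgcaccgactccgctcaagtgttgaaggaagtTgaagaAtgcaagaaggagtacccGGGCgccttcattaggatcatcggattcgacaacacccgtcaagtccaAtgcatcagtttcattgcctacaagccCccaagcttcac
RBCS1A differed from each of the other genes at 9 of the 150 bases, RBCS2B from RBCS1B and from RBCS3B at 1, and RBCS1B from RBCS3B at 0. A read over one of the capitals could thus tell RBCS1A from the chromosome 5 genes, but no read within this stretch could tell RBCS1B from RBCS3B. Exon copies of at least 90% identity covered 70.2% of RBCS2B, 29.7% of RBCS1A, 29.0% of RBCS3B and 20.8% of RBCS1B.

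All 4 small subunit genes fell in the mutant (median log2 fold change -0.38). Summed, they had 16626 ± 405 CPM in zdp-1 ape2-2 and 21274 ± 59.4 CPM in Col-0, a change of -21.8%. RBCS2B (AT5G38420, chromosome 5, 15380907 to 15382071) had 1927, 1765 and 2024 CPM in zdp-1 ape2-2 libraries A, B and C, against 2747, 2684 and 2717 CPM in Col-0 libraries A, B and C. The groups were far apart, and the mutant libraries varied more than the wild-type ones. Its log2 fold change of -0.51 ± 0.03 (SE; edgeR quasi-likelihood adjusted p = 1.64e-18) had the greatest size among the 29 members that could be measured. RBCS3B (AT5G38410, 15376988 to 15378642) had 4766, 4795 and 4154 CPM in the mutant libraries A, B and C, against 6464, 6452 and 6384 CPM in the Col-0 libraries. Its log2 fold change was -0.49 ± 0.03 (edgeR adjusted p = 3.67e-17). Mutant library C was the lowest of the mutant libraries for RBCS3B and the highest for RBCS2B.

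RBCS1A and RBCS1B fell by less. RBCS1A (AT1G67090, chromosome 1, 25048158 to 25049667) had 9436, 8877 and 9238 CPM in zdp-1 ape2-2, against 10972, 10958 and 11072 CPM in Col-0. RBCS1B (AT5G38430, chromosome 5, 15383167 to 15385320) had 964, 925 and 1011 CPM in zdp-1 ape2-2, against 1122, 1110 and 1137 CPM in Col-0. For both genes each mutant library lay below each wild-type library. The log2 fold changes were -0.26 ± 0.02 for RBCS1A and -0.22 ± 0.02 for RBCS1B, with edgeR adjusted p-values of 2.79e-13 and 8.73e-10. The sum of the 3 chromosome 5 genes does not depend on how assigned reads were divided among them, and it was 7656, 7484 and 7188 CPM in zdp-1 ape2-2, against 10333, 10246 and 10238 CPM in Col-0, a change of -27.5%. The change of RBCS1A was -16.5%.

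The make-up of the small subunit transcripts shifted with these changes, as shares of the 4 genes in counts per kb of exon, a measure in which the scaling between libraries cancels. RBCS1A made up 55.6%, 54.8% and 56.3% in zdp-1 ape2-2, against 51.6%, 51.8% and 52.1% in Col-0. RBCS2B made up 15.6% ± 1.01 in zdp-1 ape2-2 and 17.4% ± 0.15 in Col-0, and RBCS3B 24.9% ± 1.94 in zdp-1 ape2-2 and 27.3% ± 0.23 in Col-0. RBCS1B, the least of the 4 per length, took 3.92% ± 0.18 in zdp-1 ape2-2 and 3.54% ± 0.03 in Col-0. None of the 4 shares overlapped between the genotypes; with 3 libraries each, the smallest exact two-sided permutation p is 0.1.

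Rubisco activase, RCA (AT2G39730, chromosome 2, 16570746 to 16573692), which frees the active site of Rubisco from bound sugar phosphates, had 7349, 7288 and 7541 CPM in zdp-1 ape2-2, against 8432, 8050 and 7967 CPM in Col-0. Each mutant library was below each Col-0 library, though Col-0 library A stood above the other 2. The log2 fold change was -0.14 ± 0.02 (edgeR adjusted p = 1.02e-06), and -0.08 with library totals alone.

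**Figure D2:**
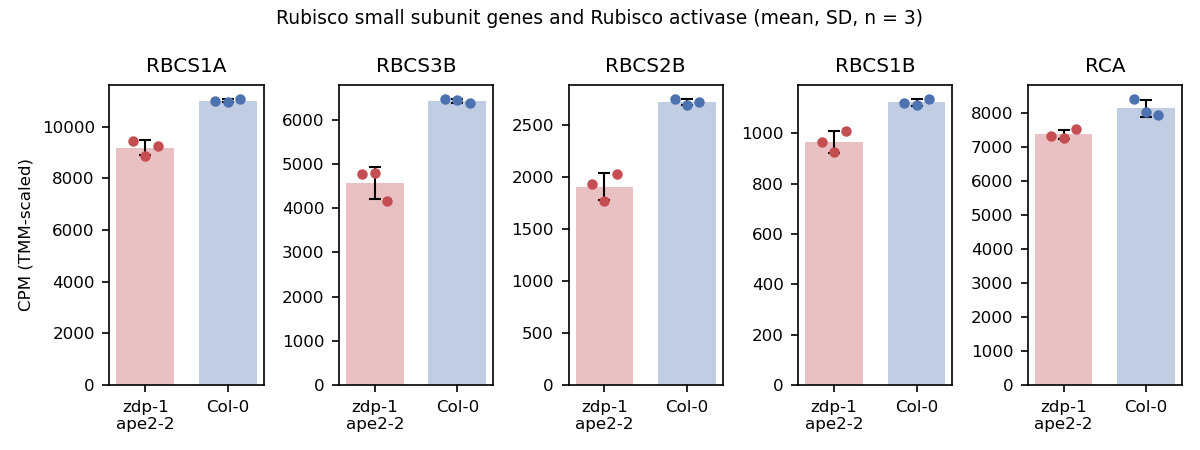
CPM of the 4 Rubisco small subunit genes and of Rubisco activase, with zdp-1 ape2-2 left of Col-0 in each panel; bars are means, error bars SDs over 3 libraries, points the libraries, and every vertical axis starts at 0 with its own range. In all 5 panels the mutant points lie below the Col-0 points, and the gap relative to the bar is greatest for RBCS2B and RBCS3B.

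The reduction steps are carried out by phosphoglycerate kinase and by the chloroplast glyceraldehyde phosphate dehydrogenase, which is built from A and B subunits. All 4 genes of these steps were called lower (median log2 fold change -0.11), and 2 of the 4 passed the test under library totals alone. The genes for the A subunit differed in size of change. GAPA-2 (AT1G12900, chromosome 1, 4392438 to 4394454) had 1317, 1328 and 1343 CPM in zdp-1 ape2-2, against 1703, 1693 and 1618 CPM in Col-0. GAPA (AT3G26650, chromosome 3, 9794862 to 9797045) had 1496, 1494 and 1530 CPM in zdp-1 ape2-2, against 1581, 1546 and 1589 CPM in Col-0. The groups did not overlap for either gene, but for GAPA the highest mutant library came close to the lowest wild-type one. GAPA-2 changed by -0.33 ± 0.02 on the log2 scale (edgeR adjusted p = 6.98e-16). GAPA changed by -0.06 ± 0.02 (edgeR adjusted p = 0.0155), a call that was lost without mutant library A (adjusted p = 0.0682) or B (adjusted p = 0.0561) and turned to 0.00 with library totals alone.

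Within a library, the ratio of GAPA-2 to GAPA in counts per kb was 0.954, 0.963 and 0.951 in zdp-1 ape2-2, against 1.167, 1.187 and 1.103 in Col-0. GAPA-2 was thus the more abundant A subunit transcript per length in the wild-type libraries, and GAPA in the mutant libraries. The B subunit gene GAPB (AT1G42970) had 1546 ± 8.17 CPM in zdp-1 ape2-2 and 1704 ± 32.7 CPM in Col-0, a log2 fold change of -0.14 ± 0.02, or -0.08 with library totals alone. PGK1 (AT3G12780), the chloroplast phosphoglycerate kinase, had 1324 ± 23.8 CPM in zdp-1 ape2-2 and 1403 ± 20.8 CPM in Col-0. Its log2 fold change was -0.08 ± 0.02 (edgeR adjusted p = 0.00142); with library totals alone it was -0.02 (edgeR adjusted p = 0.457). Copies in PGK2 covered 42.8% of the exons of PGK1.

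Of 7 genes for the regeneration of ribulose bisphosphate, 6 fell (median log2 fold change -0.21). FBPase (AT3G54050, chromosome 3, 20016837 to 20018822), the chloroplast fructose bisphosphatase, had 648, 629 and 649 CPM in zdp-1 ape2-2, against 813, 794 and 812 CPM in Col-0. All mutant libraries were well below all wild-type ones, and the log2 fold change was -0.33 ± 0.02 (edgeR adjusted p = 7.79e-16). PRK (AT1G32060, chromosome 1, 11532199 to 11534639), phosphoribulokinase, which makes the acceptor of CO2, had 928, 921 and 931 CPM in zdp-1 ape2-2, against 1078, 1082 and 1099 CPM in Col-0. SBPASE (AT3G55800, chromosome 3, 20709294 to 20711640), sedoheptulose bisphosphatase, had 713, 701 and 723 CPM in zdp-1 ape2-2, against 824, 803 and 845 CPM in Col-0. Neither gene overlapped between the genotypes, and the log2 fold changes were -0.23 ± 0.02 for PRK and -0.21 ± 0.02 for SBPASE, with edgeR adjusted p-values of 5.2e-12 and 3.2e-10. RPE (AT5G61410), ribulose phosphate epimerase, had 562 ± 0.77 CPM in zdp-1 ape2-2 and 652 ± 6.18 CPM in Col-0, a log2 fold change of -0.21 ± 0.02. TKL1 (AT3G60750), the main chloroplast transketolase, had 2001 ± 25.6 CPM in zdp-1 ape2-2 and 2085 ± 30.1 CPM in Col-0. Its log2 fold change of -0.06 ± 0.02 (edgeR adjusted p = 0.0173) did not pass without Col-0 library A or B or without mutant library A or B (adjusted p = 0.0724, 0.0599, 0.0758 and 0.0566), and it was 0.00 with library totals alone.

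The chloroplast aldolases parted. FBA2 (AT4G38970, chromosome 4, 18163496 to 18166008) had 1972, 1940 and 1955 CPM in zdp-1 ape2-2, against 2259, 2217 and 2214 CPM in Col-0, whereas FBA1 (AT2G21330, chromosome 2, 9128122 to 9130619) had 785, 797 and 802 CPM in zdp-1 ape2-2, against 797, 787 and 792 CPM in Col-0. The genotypes were apart for FBA2 and lay over each other for FBA1. The log2 fold change was -0.19 ± 0.02 for FBA2 (edgeR adjusted p = 4.23e-10, and -0.13 with library totals alone) and 0.00 ± 0.02 for FBA1 (edgeR adjusted p = 0.886); with library totals alone FBA1 was called higher, at 0.07. FBA1 made up 26.0% ± 0.33 of the summed counts per kb of both genes in zdp-1 ape2-2 and 23.5% ± 0.13 in Col-0.

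CP12 proteins bind phosphoribulokinase and glyceraldehyde phosphate dehydrogenase in the dark and hold them inactive. CP12-1 (AT2G47400, chromosome 2, 19446730 to 19447642) had 424, 438 and 447 CPM in zdp-1 ape2-2, against 497, 522 and 512 CPM in Col-0. CP12-2 (AT3G62410, chromosome 3, 23090944 to 23091580) had 115, 119 and 120 CPM in zdp-1 ape2-2, against 115, 116 and 121 CPM in Col-0. CP12-1 was lower in each mutant library than in each wild-type one, and the CP12-2 values were intermixed. The log2 fold changes were -0.23 ± 0.02 (edgeR adjusted p = 2.07e-10) for CP12-1 and 0.01 ± 0.03 (edgeR adjusted p = 0.893) for CP12-2, the second of which was called higher, at 0.07, with library totals alone.

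Promoter sequence was read for all 30 members as the 250 bases before the annotated gene start in the RefSeq TAIR10.1 genome. It was searched on both strands for the G-box CACGTG and the I-box GATAAG, 2 motifs known from light-regulated genes such as those of the Rubisco small subunit, and for the letters GGTTAA (the GT-1 core), the letters CCAATC and the TATA letters TATAAA. The G-box was found in 5 of 30 members (16.7%) and in 6.49% of 27431 protein-coding genes, and the I-box in 5 members (16.7%) and in 12.3% of those genes. The GT-1 core was found in 5 members (16.7%) and in 14.6% of all genes, CCAATC in 3 members and in 10.2% of all genes, and the TATA letters in 11 members (36.7%) and in 47.4% of all genes. G-box and I-box occurred together in 2 members (6.67%) and in 0.922% of all genes. Those members were RBCS2B and FBPase, and their windows are shown as the only ones with both motifs. RBCS2B and FBPase were among the 5 members with a fall of at least 20%. The others of those 5, RBCS3B, GAPA-2 and GLYK, had neither motif in their windows, and a link of motif to fall was not tested. The windows of RBCS2B and FBPase are printed 5′ to 3′ on the strand of the gene. G-boxes and I-boxes are in capitals, with CTTATC as the I-box on the opposite strand. The RBCS2B window lies at chr5:15382072-15382321 on the minus strand and the FBPase window at chr3:20016587-20016836 on the plus strand.
RBCS2B: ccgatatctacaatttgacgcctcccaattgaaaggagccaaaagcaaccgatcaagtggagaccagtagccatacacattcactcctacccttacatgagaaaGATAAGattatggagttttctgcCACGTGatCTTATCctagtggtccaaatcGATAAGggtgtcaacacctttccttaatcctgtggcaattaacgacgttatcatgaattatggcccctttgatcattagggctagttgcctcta
FBPase: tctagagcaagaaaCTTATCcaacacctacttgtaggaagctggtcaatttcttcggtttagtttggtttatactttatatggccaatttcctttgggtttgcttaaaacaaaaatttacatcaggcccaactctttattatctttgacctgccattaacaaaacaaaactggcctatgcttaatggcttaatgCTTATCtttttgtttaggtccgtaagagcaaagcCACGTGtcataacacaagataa
In RBCS2B the G-box started 123 bases before the gene start and lay between I-boxes at 146, 115 and 94 bases, while in FBPase it lay 22 bases before the start, with I-boxes at 236 and 56 bases. A match describes these letters in this window, whose place depends on the annotated start. The windows of the RBCS genes need not cover the same part of their promoters. RBCS1B and RBCS2B have 1894 and 935 exon bases for 546 coding bases each. The RBCS1B window resembles the RBCS2B stretch before its first I-box and ends in gataa, the first 5 letters of an I-box. A motif counted as absent there can thus lie past the window. The G-box alone occurred in PRK, GGT1 and GLDP1, and the I-box alone in RCA, CP12-2 and GLDP2, members whose log2 fold changes ran from -0.23 to 0.01.

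Photorespiration begins with a phosphatase, and its gene could not be measured. PGLP1 (AT5G36790, chromosome 5, 14480482 to 14483927), phosphoglycolate phosphatase, had 13, 12 and 9 counts in zdp-1 ape2-2 and 23, 12 and 10 counts in Col-0. A copy, AT5G36700, lies on the same chromosome, from 14421182 to 14424610, and has 0 counts in all 6 libraries. The coding sequences of 1089 bases had 0 differences, and copies covered 100% of the exons of either gene. These counts are therefore no measure of PGLP1 transcripts.

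In the peroxisome, glycolate is oxidised and glyoxylate is aminated to glycine, and later in the route hydroxypyruvate is reduced to glycerate. All 5 peroxisomal genes were called lower (median log2 fold change -0.21), and 3 of the 5 passed under library totals alone. The aminotransferase genes moved by similar amounts. GGT1 (AT1G23310, chromosome 1, 8268385 to 8272021), glutamate:glyoxylate aminotransferase, had 1359, 1354 and 1360 CPM in zdp-1 ape2-2, against 1581, 1546 and 1570 CPM in Col-0. AGT1 (AT2G13360, chromosome 2, 5538740 to 5541479), serine:glyoxylate aminotransferase, had 1071, 1068 and 1091 CPM in zdp-1 ape2-2, against 1295, 1275 and 1252 CPM in Col-0. In both genes the mutant libraries were tightly grouped below the wild type, and the log2 fold changes were -0.21 ± 0.02 for GGT1 and -0.24 ± 0.02 for AGT1, with edgeR adjusted p-values of 6.44e-11 and 1.82e-12. HPR1 (AT1G68010), hydroxypyruvate reductase, had 554 ± 10.7 CPM in zdp-1 ape2-2 and 639 ± 7.01 CPM in Col-0, a log2 fold change of -0.21 ± 0.02.

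The glycolate oxidase genes GOX1 (AT3G14420) and GOX2 (AT3G14415), neighbours on chromosome 3, fell less. GOX2 had 631, 641 and 616 CPM in zdp-1 ape2-2, against 687, 678 and 674 CPM in Col-0. GOX1 had 924, 942 and 948 CPM in zdp-1 ape2-2, against 965, 975 and 979 CPM in Col-0. The groups did not overlap, and for GOX1 they nearly met. The log2 fold change of GOX2 was -0.11 ± 0.02 (edgeR adjusted p = 5.09e-05); with library totals alone it was -0.05 (edgeR adjusted p = 0.0646). That of GOX1 was -0.05 ± 0.02 (edgeR adjusted p = 0.0373), a call that was lost without Col-0 library B or C or mutant library A or B (adjusted p = 0.0912, 0.0759, 0.173 and 0.0569), and it turned to 0.01 with library totals alone. Copies of at least 90% identity, mainly each in the other, covered 52.3% of the exons of GOX2 and 32.4% of those of GOX1.

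In the mitochondrion, the glycine decarboxylase complex (P, T, H and L proteins) and serine hydroxymethyltransferase turn glycine into serine. All 5 genes of this step among the members were called lower (median log2 fold change -0.13), and 3 of the 5 passed under library totals alone. SHM1 (AT4G37930, chromosome 4, 17831731 to 17835017), the serine hydroxymethyltransferase, had 1790, 1789 and 1788 CPM in zdp-1 ape2-2, against 2048, 2064 and 2132 CPM in Col-0. GLDT (AT1G11860, chromosome 1, 4001113 to 4003748), the T protein, had 1039, 1018 and 1024 CPM in zdp-1 ape2-2, against 1176, 1173 and 1229 CPM in Col-0. Both were clearly apart between genotypes, and both had a log2 fold change of -0.22 ± 0.02 (edgeR adjusted p = 2.34e-11 for SHM1 and 1.01e-10 for GLDT). GLDH1 (AT2G35370), an H protein that carries the bound intermediate between the others, had 266 ± 4.72 CPM in zdp-1 ape2-2 and 292 ± 7.82 CPM in Col-0, a log2 fold change of -0.13 ± 0.02, or -0.07 with library totals alone; copies of at least 90% identity covered 38.5% of its exons. The P protein genes changed least of this step: GLDP1 (AT4G33010) had 1402 ± 28.6 CPM in zdp-1 ape2-2 and 1501 ± 8.42 CPM in Col-0, and GLDP2 (AT2G26080) had 527 ± 12.1 CPM in zdp-1 ape2-2 and 554 ± 11.6 CPM in Col-0. Their log2 fold changes were -0.10 ± 0.02 and -0.07 ± 0.02 (edgeR adjusted p = 0.000184 and 0.00946), and neither passed with library totals alone, at -0.03 and -0.01 (0.163 and 0.791). GLDP2 also did not pass without Col-0 library A or mutant library B (edgeR adjusted p = 0.0706 and 0.0622).

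The route closes in the chloroplast with GLYK (AT1G80380, chromosome 1, 30217116 to 30220595), glycerate kinase, whose product re-enters the Calvin cycle. GLYK had 205, 213 and 216 CPM in zdp-1 ape2-2, against 264, 268 and 266 CPM in Col-0. The gap between the genotypes was several times the spread within either, and the log2 fold change of -0.33 ± 0.02 (edgeR adjusted p = 1.46e-14) was the greatest in size among the 11 photorespiration genes that could be measured.

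Levels of different members can be compared as TPM, which divides by exon length and by the library's own sum and so carries no TMM scaling. RBCS1A was highest of the 29 measurable members, at 12412 ± 410 TPM in zdp-1 ape2-2 and 14128 ± 55.2 TPM in Col-0. RBCS3B had 5557 ± 449 TPM in zdp-1 ape2-2 and 7430 ± 61.8 TPM in Col-0, and RBCS2B had 3492 ± 240 TPM in zdp-1 ape2-2 and 4731 ± 52.2 TPM in Col-0. RCA had 6030 ± 102 TPM in zdp-1 ape2-2 and 6317 ± 197 TPM in Col-0. In TPM, RCA was above RBCS3B in each mutant library and below RBCS3B in each wild-type one. That order depends on the division by annotated exon length, 2101 bases for RCA and 1410 for RBCS3B. In CPM, RCA was above RBCS3B in every library of both genotypes. GLYK was lowest, at 134 ± 3.17 TPM in zdp-1 ape2-2 and 160 ± 1.44 TPM in Col-0. Across the 29 genes the log2 fold change and the mean TPM in Col-0 had a Spearman rho of -0.37, given as a description, since the genes share their libraries.

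Other genes of the same pathways did not all move with the members. Of 7 further plastid Calvin cycle genes 3 were lower and 2 higher, and their median log2 fold change was 0.03; with library totals alone 2 were lower and 3 higher, with a median of 0.09. CFBP2 (AT5G64380), another plastid fructose bisphosphatase, had -0.35 ± 0.05, and RPI3 (AT3G04790), a plastid ribose phosphate isomerase, had -0.16 ± 0.02 (-0.10 with library totals alone). TKL2 (AT2G45290), the minor transketolase gene, had 64.9, 64.7 and 66.1 CPM in zdp-1 ape2-2, against 48.5, 46.3 and 46.1 CPM in Col-0. Every mutant library was above every wild-type one, and its log2 fold change was 0.47 ± 0.03 (edgeR adjusted p = 1.82e-15). The aldolase gene FBA3 (AT2G01140) rose by 0.11 ± 0.03 (0.18 with library totals alone), and PGK2 (AT1G56190) and CP12-3 (AT1G76560) stood at 0.05 and 0.03, neither past the threshold.

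Of 19 further photorespiration genes tested, 8 were lower and 5 higher, with a median of 0.02; with library totals alone 7 were lower and 9 higher, with a median of 0.08. PLGG1 (AT1G32080), the chloroplast transporter of glycolate and glycerate, had a log2 fold change of -0.35 ± 0.03. GLU1 (AT5G04140), the ferredoxin-dependent glutamate synthase that takes part in the recovery of photorespiratory ammonium, had -0.24 ± 0.02. The H protein genes were split, with GLDH3 (AT1G32470) at -0.23 ± 0.02 and GLDH2 (AT2G35120) at 0.11 ± 0.03, or 0.17 with library totals alone (edgeR adjusted p with TMM = 2.5e-10 and 0.00726). The low-level glycolate oxidase gene GOX3 (AT4G18360) rose by 0.31 ± 0.05, and SHM2 (AT5G26780) had 0.06 ± 0.03, which did not pass (edgeR adjusted p = 0.0917). Without Col-0 library A the call of GLDH2 was lost (edgeR adjusted p = 0.0523), and without mutant library B SHM2 passed as higher (0.0238).

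Within-library ratios of a member to a paralog, in counts per kb, are free of the scaling between libraries. The 7 pairs formed of a member over a paralog outside the members do not cover every such paralog. In all 7 the ratio was lower in every mutant library than in every Col-0 library. Each had an exact two-sided permutation p of 0.1, the smallest possible. TKL1 over TKL2 was 32.2, 32.3 and 32.3 in zdp-1 ape2-2, against 45.8, 47.5 and 46.8 in Col-0. SHM1 over SHM2 was 24.8 ± 0.89 in zdp-1 ape2-2 and 30.2 ± 1.07 in Col-0, and GOX1 over GOX3 was 48.2 ± 2.07 in zdp-1 ape2-2 and 61.9 ± 4.01 in Col-0. GLDH1 over GLDH2 was 4.48 ± 0.19 in zdp-1 ape2-2 and 5.29 ± 0.04 in Col-0. In each of the 7 pairs the member was the more abundant gene per length. GLDH3, CFBP2 and CP12-3 were among the paralogs not paired. GLDH3 fell by more than GLDH1, with log2 fold changes of -0.23 and -0.13, the other way from the 7 pairs. CFBP2 and FBPase fell by similar amounts (-0.35 and -0.33), while CP12-3 stood at 0.03 and CP12-1 at -0.23. Of 8 pairs made of 2 members, where the direction depends on which gene is put on top, 6 did not overlap between the genotypes. The pairs that overlapped were GLDP1 over GLDP2, at 2.942 ± 0.10 in zdp-1 ape2-2 and 2.996 ± 0.05 in Col-0 (exact two-sided permutation p = 0.6), and RBCS1B over RBCS1A, at 0.070 on average in zdp-1 ape2-2 and 0.068 in Col-0 (exact p = 0.3).

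**Figure D3:**
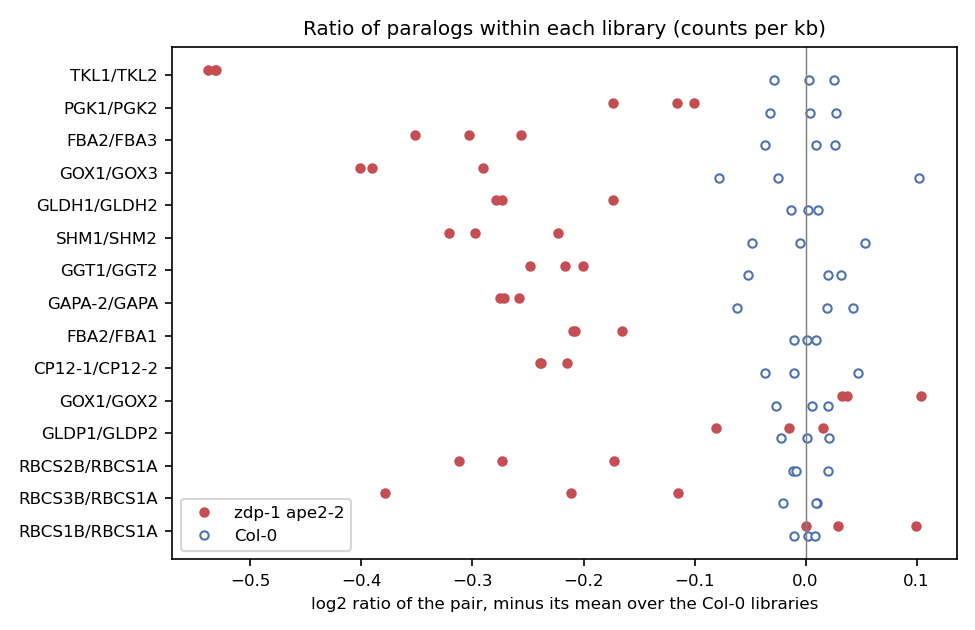
Log2 ratio of 2 paralogs within each library, in counts per kb of exon and minus its mean over the Col-0 libraries (horizontal axis), for 15 pairs, the upper 7 of a member over a paralog outside the members and the lower 8 of 2 members; filled points are zdp-1 ape2-2 and open points Col-0. In the upper 7 pairs the mutant points lie left of all Col-0 points, farthest for TKL1 over TKL2; the groups overlap in GLDP1 over GLDP2 and RBCS1B over RBCS1A.

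Genes whose products assemble Rubisco were partly lower, with 6 of 10 lower and none higher (median log2 fold change -0.17). RBCX1 (AT4G04330) had -0.35 ± 0.04, with 19.4% of its exons under another gene, and RBCX2 (AT5G19855) had -0.30 ± 0.03; both encode assembly chaperones of Rubisco. The 4 genes that did not pass encode the chloroplast chaperonin and its co-chaperonin. With library totals alone 5 of the 10 were lower and 3 higher. All 8 genes of the chloroplast thioredoxin system, which switches several Calvin cycle enzymes on in the light, were lower, with a median of -0.24; with library totals alone 6 of the 8 passed. TRXF2 (AT5G16400), an f-type thioredoxin, had -0.36 ± 0.03, NTRC (AT2G41680), a thioredoxin reductase joined to a thioredoxin, -0.27 ± 0.02, and TRXM4 (AT3G15360), an m-type thioredoxin, -0.26 ± 0.02.

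Cytosolic or glycolytic counterparts of the member enzymes moved in both directions. Of 17, 8 were higher and 3 lower, against 22.2% and 21.2% of all genes tested, and the median log2 fold change was 0.08. With library totals alone 10 were higher and 3 lower, with a median of 0.14. FBA5 (AT4G26530), a cytosolic aldolase, fell by 0.46 ± 0.02 on the log2 scale and CFBP1 (AT1G43670), the cytosolic fructose bisphosphatase of sucrose synthesis, by 0.27 ± 0.02. RPI1 (AT1G71100), a ribose phosphate isomerase, rose by 0.33 ± 0.06. No test compared this list with the members.

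**Figure D4:**
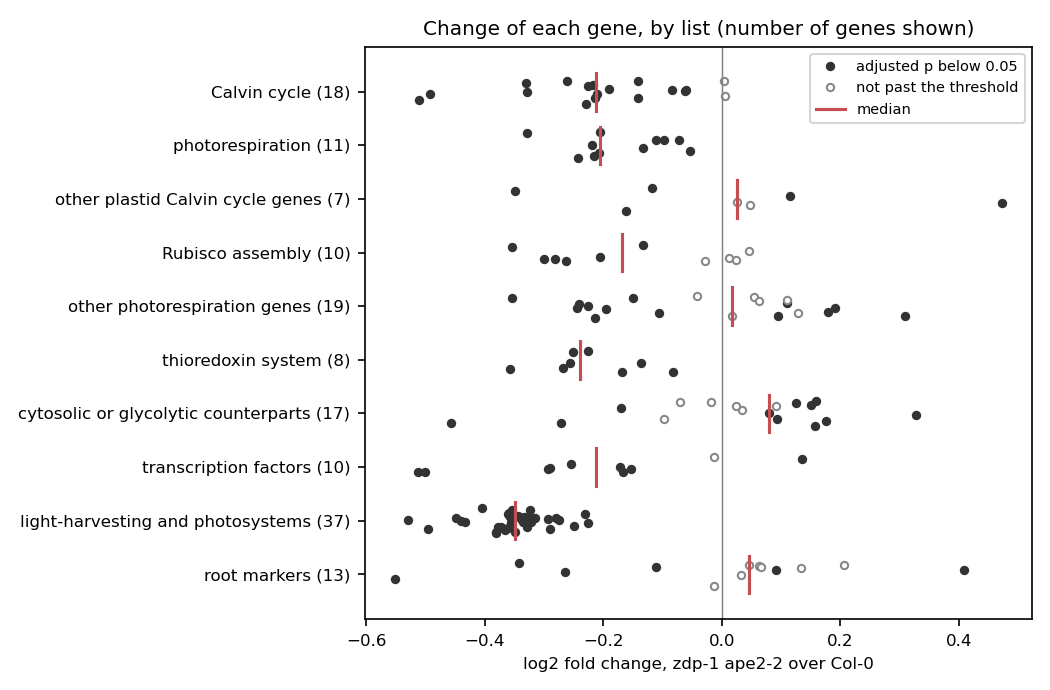
Log2 fold change, zdp-1 ape2-2 over Col-0 (horizontal axis), of each gene in 10 lists; filled points had an edgeR adjusted p below 0.05, open points did not, and red bars are list medians. The members lie at or left of 0, the light-harvesting and photosystem genes all left of it, and the other plastid Calvin cycle, other photorespiration, cytosolic and root lists on both sides.

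Genes that mark green tissue and genes that mark flowers or seeds differed between the genotypes beside the members, and root markers were mixed. All 37 tested light-harvesting and photosystem genes were lower, with log2 fold changes from -0.53 to -0.23 and a median of -0.35, and their summed level was 91731 to 94102 CPM in zdp-1 ape2-2 and 118569 to 120079 CPM in Col-0. Of 13 root markers 4 were lower and 2 higher, against 21.2% and 22.2% of all genes tested. Their sum was 333 to 350 CPM in zdp-1 ape2-2 and 349 to 358 CPM in Col-0, and the ranges overlapped. As a share of all counts that sum averaged 0.0347% in zdp-1 ape2-2 and 0.0345% in Col-0. All 6 markers of flowers and seeds were higher, with sums of 29.3 to 30.2 CPM in zdp-1 ape2-2 and 9.91 to 10.4 CPM in Col-0, and the seed storage gene CRU3 was at 0 in Col-0 library C. The part of these differences in the member results was not tested.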

How the data were processed

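The authors deposited a whole-number read count per gene for each of the 6 samples, not normalised and not pooled; the reads had been aligned with STAR to TAIR10, per the submitters' processing notes. How reads were assigned to genes, by strand or when they had several placements, is not given in the sources used here. Members and gene lists were chosen with earlier results of these data known. Named were all members, ZDP and APE2, their direct paralogs, and from each other list at most the 3 called genes with the largest change; 1 gene that this rule names is not reported here.

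From these counts, edgeR 4.0.16 in R 4.3.3 kept 21182 genes (filterByExpr), scaled libraries by TMM, and tested zdp-1 ape2-2 against Col-0 in 1 quasi-likelihood fit over the 6 libraries with genotype as the only term, two-sided, with Benjamini-Hochberg adjustment over all genes tested. A standard error is the log2 fold change over the root of its F value. The test was checked on simulated counts. DESeq2 1.42.0, limma 3.58.1 (voom), other scalings and filters, a test against a 1.2-fold change, a replicate block and each library left out were the alternatives. TPM used the union of exons as length. Exon copies of at least 90% identity and 50 bases were found with BLAST 2.17.0. All 33489 gene identifiers were found in RefSeq TAIR10.1, 33297 with the same coordinates; the sequences printed come from that genome and coordinates of genes from the deposited tables.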

Additional observations from a re-analysis of the deposited data

How the results depend on the processing

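Of the settings tried, scaling by library totals alone and testing against a 1.2-fold change moved the results most. With library totals alone, 2717 of all genes were lower, 2 members (FBA1 and CP12-2) were called higher, and the member median log2 fold change was -0.14; GAPA, TKL1 and GOX1 turned to 0.0022, 0.0038 and 0.0103, and PGK1, GOX2, GLDP1 and GLDP2 kept their direction but did not pass. The paralogs PGK2 and SHM2 passed as higher there, at 0.11 and 0.13. Against a 1.2-fold change, 1476 genes were higher and 665 lower, and 5 members were lower: RBCS2B, RBCS3B, GAPA-2, FBPase and GLYK. The cause was not tested. With each library left out in turn, 23 to 27 members were lower and 0 higher, the member median ran from -0.22 to -0.20, and 4220 to 4397 genes were higher and 3994 to 4224 lower. The values of FBA1, CP12-2 and CP12-3, which do not pass, changed sign in some of these fits, with FBA1 from -0.0044 to 0.0122, CP12-2 from -0.0086 to 0.0247 and CP12-3 from -0.033 to 0.0999. DESeq2 called 3474 genes higher and 3329 lower, and 27 members lower.

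Libraries with the same letter did not deviate together (correlations of -0.007, 0.066 and 0.013), so the letters were not taken as pairs; with the letter as a replicate block 4830 genes were higher and 4620 lower, and 27 members were lower. PGLP1 had 9 to 23 counts in a library, and no other member had under 3688.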

Other observations

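Transcription factor genes known to act on chloroplast development or on photosynthesis genes were also mostly lower in zdp-1 ape2-2, with 8 of 10 tested genes lower, 1 higher and a median log2 fold change of -0.21. GLK1 (AT2G20570), a Golden2-like factor that promotes photosynthesis genes, had 114, 115 and 113 CPM in zdp-1 ape2-2, against 163, 163 and 159 CPM in Col-0. All mutant libraries were far below all wild-type ones, and its log2 fold change was -0.50 ± 0.03 (edgeR adjusted p = 2.34e-19). The GATA factor genes CGA1 (AT4G26150) and GNC (AT5G56860) had log2 fold changes of -0.51 ± 0.13 and -0.29 ± 0.05. CGA1 was low, with 2.05 ± 0.11 CPM in zdp-1 ape2-2 and 2.93 ± 0.22 CPM in Col-0. With library totals alone 6 of the 10 genes were lower and 1 higher.

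Both carbonic anhydrase genes of the list, whose products interconvert CO2 and bicarbonate, were lower. CA1 (AT3G01500) had 2194, 2345 and 2092 CPM in zdp-1 ape2-2, against 2700, 2630 and 2606 CPM in Col-0, a log2 fold change of -0.26 ± 0.03. CA2 (AT5G14740) had 793 ± 14.6 CPM in zdp-1 ape2-2 and 877 ± 11.6 CPM in Col-0, a log2 fold change of -0.14 ± 0.02.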
